A study of Homo sapiens with 19 samples.

Results

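The genes described here are the nuclear-encoded subunits of mitochondrial complex I, taken by their NDUF symbols from the deposited count tables. The list holds 36 genes of the 58051 in the exon count table, and all 36 were found there. Complex I is the entry point of the respiratory chain: it takes electrons from NADH through a flavin and a chain of iron-sulfur clusters to ubiquinone and pumps protons across the inner mitochondrial membrane. Its subunits come from both genomes. The nuclear-encoded ones are translated in the cytosol, imported into the mitochondrion and joined there to the mitochondrially encoded ND subunits with the help of dedicated assembly factors, so the nuclear mRNAs have to be spliced and exported before they are used.

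RNA was sequenced from untreated K562, an established human erythroleukaemia line, as whole cells and as subcellular fractions. There were 4 rRNA-depleted libraries from each of whole cells, cytoplasm, nuclear wash and nucleus. The wash was also prepared in 3 libraries with the depletion step left out. Every library came from the same line with RNA taken out by Trizol LS, yeast spike-in RNA added and a stranded total RNA kit used. The labels do not say whether replicates were separate cultures, and the p-values then reflect only how far these libraries vary, possibly for technical reasons. The labels also give no detergent or lysis step, and they do not state how much spike-in went into each fraction.

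Exon counts per library ran from 1373755 to 2643131 in the nucleus, from 2616547 to 7955415 in the other depleted fractions and from 923464 to 1801293 in the undepleted wash. The summed level of 3 nuclear RNAs (MALAT1, NEAT1, KCNQ1OT1) was 51810 to 71820 counts scaled to a library of equal size (CPM) in the nucleus, 2745 to 3611 in the cytoplasm and 5392 to 22220 in the wash. A list of 11 erythroid markers was above 0 in each fraction and summed to 1487 to 1759 CPM in the nucleus and 3043 to 5700 CPM elsewhere. Spike-ins took 0.192% to 0.232% of counts in whole cells, 0.405% to 0.457% in cytoplasm, 0.972% to 1.04% in nucleus and 3.14% to 4.14% in the depleted wash. All levels and fold changes below are relative to the other genes of a library, unless spike-in scaling is named. Scaled to the spike-ins, the median of all genes tested moved from 0.02 to -0.60 (log2) for nucleus against cytoplasm, from 0.05 to -3.10 for wash against cytoplasm and from 0.06 to -2.47 for wash against nucleus. Against whole cells it moved from 0.00 to -1.24 for cytoplasm, from 0.04 to -1.83 for nucleus and from -0.10 to -4.51 for wash.

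For 7 of the 36 members only part of the coding bases could be counted. At least 90% of the span of NDUFV2, NDUFA7, NDUFA9, NDUFA11, NDUFA13, NDUFC2 and NDUFB8 lies inside other genes annotated on the same strand, such as the read-through gene NDUFC2-KCTD14 for NDUFC2. These members are called covered below. Among the other 29 the largest such share was 44.65%. The deposited gene-body counts of all 7 covered members were under 5 in every library, even where exon counts reached 240. Over the whole table, 94.4% of 880 genes lying inside a same-strand gene had gene-body counts at or below 5% of their exon counts, against 0 of 1437 lying inside opposite-strand genes only and 0.0707% of 9895 with no same-strand overlap. By these values, reads in bases shared by same-strand genes were left out of the tables, and reads were assigned by strand. Of the coding bases, 15.3% were free of other same-strand exons in NDUFV2, 21.7% in NDUFA7, 32.1% in NDUFA9, 63.1% in NDUFA11, 44.8% in NDUFA13, 23.1% in NDUFC2 and 14.8% in NDUFB8, against 100% in each of the other 29. Some members not covered also lost noncoding exon bases. The share of all exon bases free of other same-strand exons was lowest among them in NDUFS3 (80.35%) and NDUFC1 (81.45%). Of their spans 44.65% and 37.73% lie inside same-strand genes, so their gene-body counts and intronic shares leave out part of the span.

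What remains countable includes bases of retained-intron transcripts in 6 of these 7 members. In NDUFC2 all 2221 countable exon bases belong to coding transcripts. The share of countable exon bases that belong to coding transcripts was 86.8% in NDUFA11, 84.4% in NDUFA9, 72.1% in NDUFV2 and 55% in NDUFA13, and lower in NDUFB8 (26.4%) and NDUFA7 (15.2%). In NDUFV2, which encodes an iron-sulfur subunit of the NADH-oxidising module (chr18:9102630-9134345, plus strand, GRCh38), the countable pieces include a stretch at chr18:9117387-9117837 that GENCODE 29 gives to a retained-intron and a processed transcript and to no coding one. The last 300 bases of it are shown with pieces of NDUFA9 and NDUFB8 because they show what the exon counts of covered members can hold. The NDUFA9 piece (chr12:4668525-4668710, plus strand) and the NDUFB8 piece (chr10:100526717-100526974, minus strand) belong to retained-intron transcripts. Bases are given in lower case in the gene's direction, with capitals on the GT or AG that lies directly beside an exon of a coding transcript.
NDUFV2: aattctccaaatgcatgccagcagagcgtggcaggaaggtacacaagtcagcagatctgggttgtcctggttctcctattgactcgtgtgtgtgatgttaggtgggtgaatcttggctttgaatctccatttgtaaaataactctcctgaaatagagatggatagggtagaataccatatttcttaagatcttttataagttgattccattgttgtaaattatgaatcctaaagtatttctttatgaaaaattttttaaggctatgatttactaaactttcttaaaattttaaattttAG
NDUFA9: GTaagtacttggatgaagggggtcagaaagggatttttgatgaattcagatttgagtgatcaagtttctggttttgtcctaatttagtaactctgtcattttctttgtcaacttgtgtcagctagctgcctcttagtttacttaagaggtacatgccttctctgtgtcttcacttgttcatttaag
NDUFB8: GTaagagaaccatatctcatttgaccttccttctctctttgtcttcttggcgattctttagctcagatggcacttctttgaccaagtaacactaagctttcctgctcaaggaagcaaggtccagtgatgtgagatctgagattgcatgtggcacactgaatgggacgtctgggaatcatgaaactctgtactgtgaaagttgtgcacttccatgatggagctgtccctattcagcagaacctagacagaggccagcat

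Most subunit mRNAs were depleted from the nucleus relative to the cytoplasm. Of the 35 members that could be tested (NDUFA7 was below the count filter), 22 were lower in the nucleus, 6 were higher and 7 did not pass the test (edgeR quasi-likelihood, Benjamini-Hochberg adjusted p under 0.05 over all 15940 genes). Over all genes tested 37.5% were lower and 39.3% higher. Among the 29 members not covered, 21 were lower, NDUFA10 alone was higher and 7 did not pass, with a median log2 fold change of -1.29 against 0.02 over all genes. The median of the members not covered was below 0 under each scaling tried: it was -1.15 with RLE factors, -0.69 with no composition factor and -1.92 with spike-in library sizes. With no composition factor 7 of the 29 were called higher in place of 1 and 19 lower, beside 53.3% and 23.6% of all genes tested. With spike-in library sizes none was higher and 27 were lower, beside 27.1% and 50.9%. The CPM of nucleus and cytoplasm did not overlap in either direction for 27 of the 35 members, against 71.4% of all genes tested.

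The 5 members lowest in the nucleus were accessory subunits, none of which carries a redox centre. NDUFA8, a twin-CHCH subunit on the intermembrane-space side (chr9:122144058-122159819, minus strand), stood at 31.2, 28.8, 40.7 and 32.9 CPM in the 4 cytoplasm libraries and at 3.57, 2.74, 2.43 and 7.74 CPM in the nucleus. No nuclear library reached a cytoplasmic one, and its log2 fold change was -3.13 ± 0.25 (SE, edgeR adjusted p = 4.47e-10, n = 4 per group). NDUFB7, another CHCH subunit (chr19:14566078-14572062, minus strand), stood at 18.9, 19.2, 21.4 and 18.5 CPM in the cytoplasm and at 0.892, 2.39, 2.43 and 3.61 CPM in the nucleus, a change of -3.06 ± 0.32 (edgeR adjusted p = 2.44e-08). NDUFC1 fell by 2.99 (log2), NDUFB11 by 2.80 and NDUFAB1, the mitochondrial acyl carrier protein that is also built into complex I, by 2.75. NDUFA1, a single-span membrane subunit, fell by 2.73, so 6 members were more than 2.5 log2 units lower in the nucleus. Their nuclear exon counts per library were few, which limits the precision of these values. They were 2 to 9 for NDUFB7, 5 to 11 for NDUFB11 and 8 to 15 for NDUFA8. NDUFA1 had 11 to 19, NDUFC1 14 to 34 and NDUFAB1 25 to 30.

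The core subunits of the peripheral arm, which carry out the redox chemistry, ranged from -1.24 to 0.10 apart from the covered NDUFV2. NDUFV1, which binds FMN and NADH, stood at 87.0, 86.6, 105.5 and 103.5 CPM in the cytoplasm and at 101.2, 109.7, 98.7 and 101.7 in the nucleus. These groups overlap, and its log2 fold change of 0.10 ± 0.13 did not pass (edgeR adjusted p = 0.475). NDUFS1, the large iron-sulfur subunit of the same module, fell from 214.8 ± 13.1 CPM in the cytoplasm to 111.3 ± 3.43 in the nucleus (SD, n = 4), or by 0.95 (log2). NDUFS3 fell by 1.13 and NDUFS8, an iron-sulfur subunit near the ubiquinone site, by 1.24, whereas NDUFS7, which holds the last cluster before ubiquinone, had -0.06 ± 0.16 (edgeR adjusted p = 0.728). By position in the complex, the median log2 fold change was -0.51 over the 6 core subunits of the peripheral arm in the list, -1.78 over its accessory subunits, -0.49 over the accessory subunits of the proximal membrane arm and -1.72 over those of the distal membrane arm. These are medians over 6, 7, 10 and 12 members, and they include the covered members. Over the members not covered the same medians were -0.95 (5 members), -1.78 (7), -1.94 (6) and -1.94 (11), so both membrane-arm groups then had the same value.

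NDUFS5, an accessory subunit of the membrane arm with the CHCH fold, was lower in the nucleus like most members. Its CPM was 27.6, 26.9, 29.0 and 37.3 in the cytoplasm and 17.8, 13.7, 10.3 and 13.9 in the nucleus, with no overlap. The log2 fold change was -1.14 ± 0.28 (edgeR adjusted p = 0.00101), and it did not pass within the libraries of column prefix 1 (-0.81) or with no composition factor (-0.54). NDUFA10, a proximal membrane-arm subunit related to nucleoside kinases, was the member not covered that was higher in the nucleus: 61.8, 62.1, 68.8 and 70.2 CPM in the cytoplasm and 132.4, 126.5, 118.5 and 112.0 in the nucleus. It rose by 0.90 ± 0.11 (edgeR adjusted p = 2.05e-07), and with spike-in library sizes it was not called higher.

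**Figure D1:**
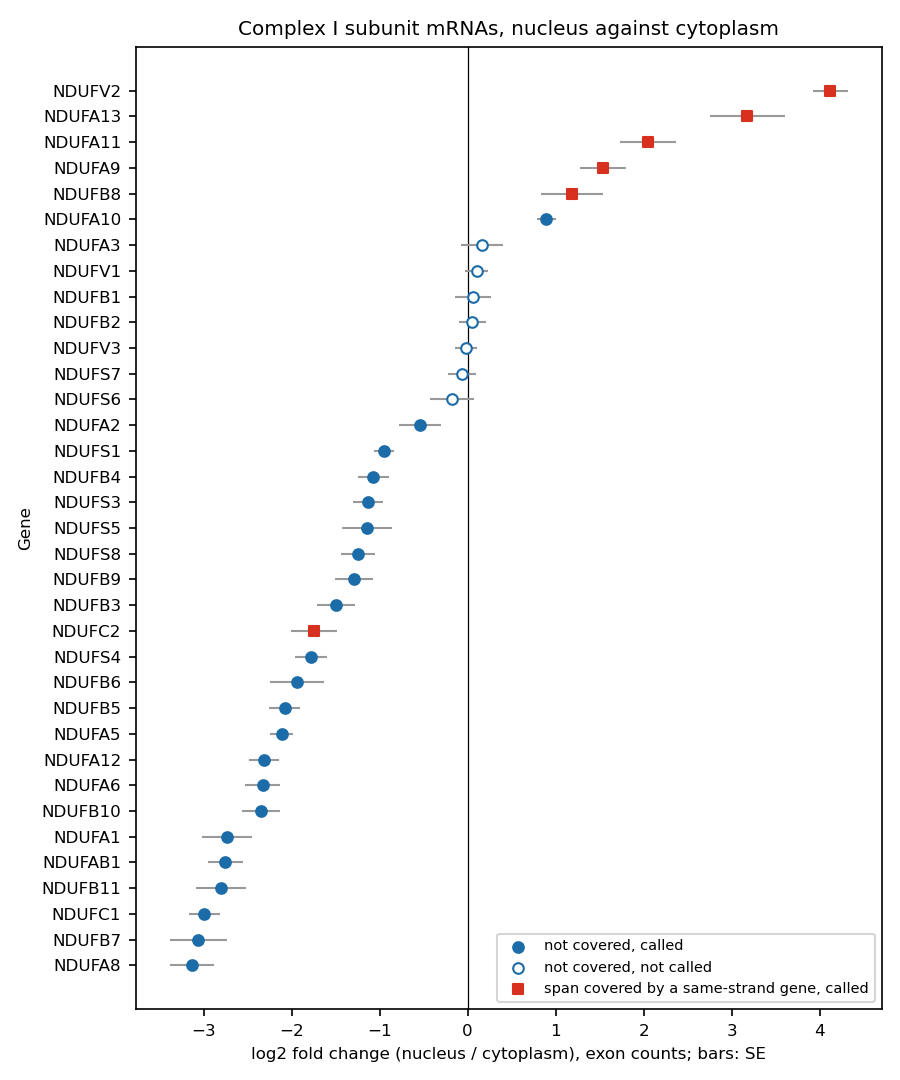
Log2 fold change of exon counts, nucleus against cytoplasm, for the 35 members tested, with standard errors; filled symbols passed the test and squares mark members whose span lies inside a same-strand gene. The 5 members farthest to the right, from NDUFV2 at 4.12 to NDUFB8 at 1.19, are all covered members.

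NDUFV2 was the extreme of the list in the other direction. Its exon counts were 21, 25, 20 and 28 in the cytoplasm and 139, 188, 240 and 136 in the nucleus, or 2.93 to 4.35 CPM against 62.0 to 70.2 CPM. The nuclear libraries stood far above every other one, with whole cells at 17.0 to 25.6 CPM and the wash at 10.2 to 20.1 CPM. The log2 fold change was 4.12 ± 0.20 (edgeR adjusted p = 2.67e-13). Of the 6 covered members tested, 5 were higher in the nucleus: NDUFV2, NDUFA13 by 3.18, NDUFA11 by 2.05, NDUFA9 by 1.54 and NDUFB8 by 1.19. NDUFC2 went the other way and fell by 1.75. These values rest on few counts, between 1 and 93 in any cytoplasm library and between 1 and 240 in any nuclear one over the 7 covered members. Since most coding bases of NDUFV2 were not counted, its 4.12 describes the countable pieces, and what part they take in the mRNA was not tested. Exon counts of an annotated NDUFV2 pseudogene summed to 21.8% of those of the gene, and pseudogene shares were 17.3% for NDUFB8, 10.1% for NDUFA9 and at most 7.49% among the members not covered. How reads that match both copies were treated is not given in the sources used here, so these genes are uncertain.

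**Figure D2:**
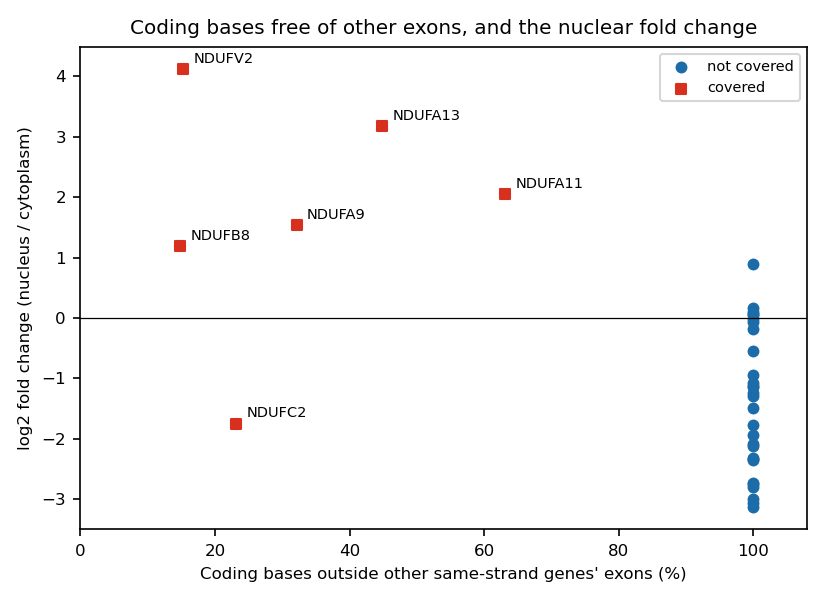
Each point is 1 tested member, with the share of its coding bases (%) lying outside the exons of other same-strand genes on the horizontal axis and its log2 fold change, nucleus against cytoplasm, on the vertical axis. The 29 members not covered sit at 100% and between -3.13 and 0.90, and the 6 covered members sit between 14.8% and 63.1%.

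The full order of the 4 depleted fractions differed among members, and the most common orders each held for 9 of the 29 not covered. By mean CPM, the cytoplasm was the highest of the 4 depleted fractions for 19 of the 29 members not covered and the nucleus the lowest for 21. Whole cells lay between nucleus and cytoplasm for 22 of these 29. No share over all genes was taken for these counts, so they describe the members only. Per kilobase of exon in whole cells, the 3 highest members were NDUFB9 (57.8 ± 7.69 CPM per kb, SD, n = 4), NDUFS5 (55.9 ± 20.8) and NDUFB10 (52.1 ± 14.2), whose spreads overlap. The 3 lowest were the covered members NDUFA9 (0.653 ± 0.163), NDUFA7 (0.667 ± 0.291) and NDUFA13 (1.15 ± 0.463), and the lowest not covered was NDUFA3 (2.12 ± 0.262), a small membrane-arm subunit. Exon length is here the union of all annotated transcripts, which lowers the value of genes with many long alternative exons.

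**Figure D3:**
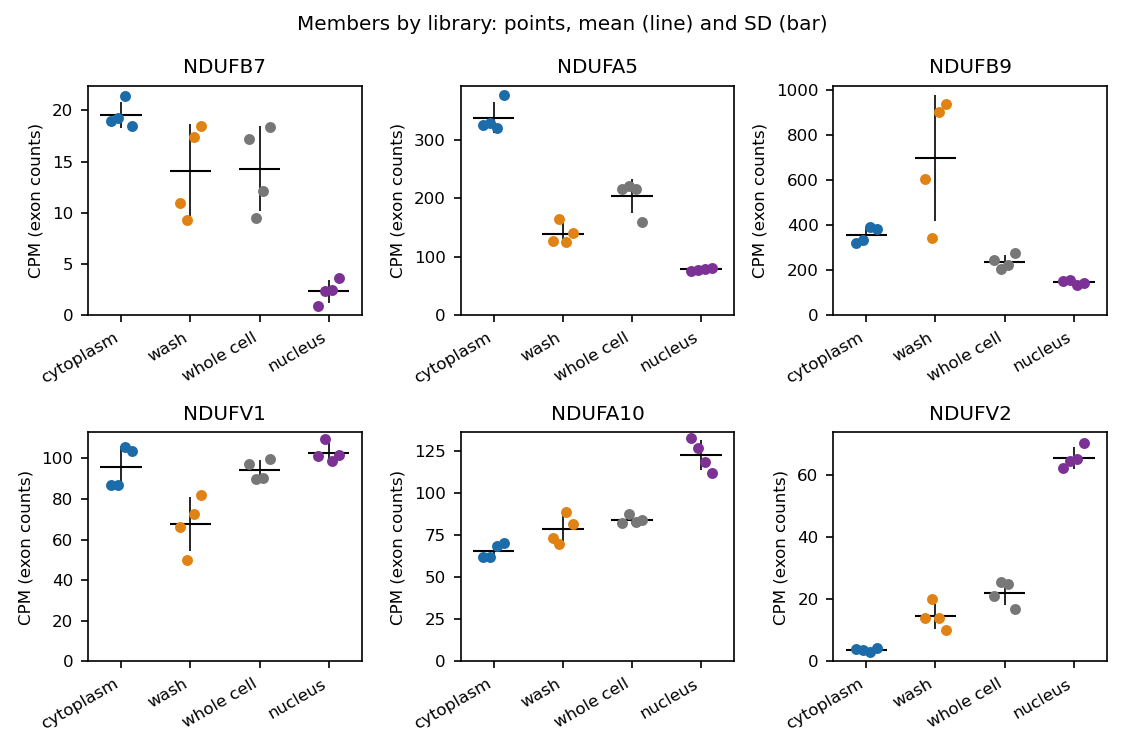
CPM of 6 members in the 16 depleted libraries, by fraction: points are libraries, lines the mean and bars the SD of 4 libraries. NDUFB7 and NDUFA5 are highest in the cytoplasm, NDUFB9 is highest in the wash with 1 wash library near the cytoplasm level, NDUFV1 is lowest in the wash, and NDUFA10 and NDUFV2 are highest in the nucleus.

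Against whole cells, 19 members were higher in the cytoplasm and 4 lower, with 22.3% of all genes tested higher and 27.6% lower (edgeR, adjusted p under 0.05). NDUFAB1 rose by 1.06 ± 0.16, NDUFA8 by 0.82, NDUFC1 by 0.78, NDUFB6 by 0.75 and NDUFA5, a peripheral-arm accessory subunit, by 0.73. The 4 that fell were NDUFV2 by 2.57, NDUFA13 by 2.54, NDUFA11 by 1.41 and NDUFA10 by 0.36, and NDUFS5 had 0.02 ± 0.25. In the nucleus 21 members were lower than in whole cells and 3 higher, against 29.0% lower and 25.9% higher over all genes. NDUFB7 fell by 2.59 ± 0.34, NDUFA8 by 2.31, NDUFC1 by 2.21, NDUFA1 by 2.15, NDUFB11 by 2.10 and NDUFS5 by 1.12. The 3 that rose were NDUFV2 by 1.55, NDUFA9 by 0.92 and NDUFA10 by 0.54. With no composition factor 4 members were higher and 6 lower in the cytoplasm, against 8.91% and 35.7% of all genes, and 11 were higher and 16 lower in the nucleus, against 42.8% and 18.3%. With spike-in library sizes no member was higher than in whole cells in either fraction, 32 were lower in the cytoplasm and 34 in the nucleus, beside 92.2% and 86.4% of all genes, and the share of higher among all calls fell from 44.67% and 47.20% to 0.0% in both.

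Between nuclear wash and cytoplasm most members did not pass the test. Of 35 members 14 were lower in the wash, 2 were higher and 19 did not pass, with a median log2 fold change of -0.33, against 21.4% lower and 22.8% higher over all genes tested (edgeR, adjusted p under 0.05). NDUFA5 fell most: 326.7, 329.7, 320.4 and 377.9 CPM in the cytoplasm and 127.4, 164.0, 126.1 and 141.2 in the wash, with no overlap. Its log2 fold change was -1.28 ± 0.12 (edgeR adjusted p = 5.83e-08). NDUFA8 fell by 0.83, NDUFA12 by 0.77, NDUFB10 by 0.71 and NDUFA6, an accessory subunit with the LYR motif, by 0.62. NDUFS5 had -0.25 ± 0.25 (edgeR adjusted p = 0.449). Scaled to the spike-ins, 35 of 35 were lower in the wash, as were 93.3% of all genes, and the share of higher among all calls fell from 51.58% to 0.0202%. RNAs of some other compartments and cell types were higher in the wash too. The reticulum chaperones HSPA5 and HYOU1 summed to 1562 to 2259 CPM in the wash and 426 to 580 in the cytoplasm, and the 3 nuclear RNAs above were each higher in the wash, by a median of 1.85 (log2). The 4 lymphoid markers, 1 of them at 0 in each of these fractions, summed to 203.1 to 234.1 CPM in the wash and 49.1 to 95.2 in the cytoplasm. In the nucleus they summed to 130.2 to 165. The 4 fibroblast or endothelial markers summed to 68.8 to 76.5 in the wash and 17.0 to 18.7 in the cytoplasm. Only 2 genes of each of these lists could be tested, and they were higher in the wash. The 3 epithelial markers overlapped, at 225.5 to 356.1 and 204.4 to 243.7, and 1 of the 2 tested was higher. Their part in the members' changes was not tested.

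NDUFB9, the other LYR-motif subunit, of the distal membrane arm, was the member not covered that rose in the wash. It stood at 605.7, 342.5, 902.2 and 940.3 CPM in the wash, at 320.6, 332.9, 392.7 and 384.0 in the cytoplasm, at 203.1 to 277.7 in whole cells and at 135.2 to 153.8 in the nucleus. One wash library, replicate 2, lay within the cytoplasmic range, while the other 3 lay above it. The log2 fold change was 0.96 ± 0.21 against cytoplasm (edgeR adjusted p = 7.47e-04), 2.26 ± 0.22 against nucleus and 1.56 ± 0.21 against whole cells. Against cytoplasm it was 0.53 within the libraries whose column names begin with 1 and 1.24 within those that begin with 2, and the difference of 0.72 between them did not pass (edgeR adjusted p = 0.148). NDUFS4, an accessory subunit of the peripheral arm, did differ between the prefixes in the wash against cytoplasm (0.94, edgeR adjusted p = 0.0158), and it was the only member that did in the 6 comparisons of depleted fractions. Over all 15940 genes tested, 289 differed between the prefixes in the wash against cytoplasm. Leaving out any 1 library kept NDUFB9 between 0.78 and 1.18, and with spike-in library sizes it reversed to -2.28.

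Against the nucleus, the wash held more of the subunit mRNAs. There 21 members were higher in the wash and 7 lower, against 36.7% higher and 35.4% lower over all genes tested (edgeR, adjusted p under 0.05). NDUFB7 rose by 2.60 ± 0.33, NDUFA1 by 2.42, NDUFC1 by 2.40, NDUFA8 by 2.30 and NDUFS5 by 0.90 ± 0.29 (edgeR adjusted p = 0.00916). NDUFA13 fell by 2.49, NDUFV2 by 2.15, NDUFA11 by 1.64, NDUFA9 by 1.12 and NDUFA10 by 0.64, and the first 4 of these are covered. With no composition factor 16 were higher and 14 lower, beside 18.2% higher and 52.4% lower over all genes. With spike-in library sizes none was higher and 28 of 35 were lower, beside 93.5% of all genes. The share of higher among all calls went from 50.91% to 25.72% and 0.1273%. Against whole cells only 5 members were higher in the wash and 6 lower, with 14.6% higher and 19.7% lower over all genes, and 35 of 35 were lower when scaled to the spike-ins, as were all 15940 genes tested. NDUFC2 rose by 0.65, NDUFAB1 by 0.45, NDUFS1 by 0.43 and NDUFV3 by 0.36 beside NDUFB9, and NDUFA13, NDUFA11, NDUFV2, NDUFS7 and NDUFA5 fell by 1.85, 1.00, 0.59, 0.59 and 0.54. Leaving out 1 library ended the calls of NDUFC2, NDUFAB1, NDUFV3 and NDUFV2 in some of the 8 fits against whole cells, among them wash replicate 4 for NDUFC2, NDUFAB1 and NDUFV2 and wash replicate 1 for NDUFV3.

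The deposited tables count both exons and gene bodies, so the share of a gene's reads lying in introns was taken for the 29 members not covered. It was higher in the nucleus than in the cytoplasm for all 29 (exact permutation test, two-sided, p = 0.0286, the smallest 4 against 4 libraries can give; adjusted p = 0.0336 over 11287 genes). Over all genes 82.9% were higher and 2.05% lower, so a nuclear excess of intronic reads was general. The median over members was 70.5% in the nucleus and 7.14% in the cytoplasm, beside 71.4% and 13.9% over all genes. In the wash the median was 30.2%, and 0 members passed against the cytoplasm, where 0.0% of 12038 genes were called higher since the smallest adjusted p was 0.0522; 28 of 29 were higher at an unadjusted p of 0.0286, as were 53.4% of all genes at an unadjusted p under 0.05. NDUFB9 was the other: 3.12% ± 2.44 in the wash and 2.01% ± 0.591 in the cytoplasm (exact permutation p = 0.600).

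NDUFB10, of the distal membrane arm, and NDUFV1 had the lowest intronic shares in the nucleus, 15.5% ± 6.73 and 15.5% ± 1.53 (SD, n = 4), followed by NDUFB9 at 33.0% ± 2.20. NDUFB6 was highest at 95.0% ± 0.877, with NDUFA8 at 93.3% ± 3.57 and NDUFS4 at 92.6% ± 0.358. In the cytoplasm NDUFB10 had 0.167% ± 0.134, NDUFV1 0.880% ± 0.224 and NDUFA1 1.66% ± 0.653, whereas NDUFA2 had 35.6% ± 5.82, NDUFB6 33.6% ± 6.89 and NDUFB2 31.1% ± 2.37. NDUFV1 shows how one member moved across fractions: 1.12%, 0.977%, 0.825% and 0.597% in the cytoplasm, 7.18%, 7.16%, 5.99% and 3.13% in the wash and 17.8%, 15.3%, 14.7% and 14.4% in the nucleus. Its 3 fractions did not overlap. NDUFV1, whose exon level did not pass the test between nucleus and cytoplasm, thus had the lowest intronic share but 1 in both. Annotated exons take 5057 of the 6902 bases of its span, which limits the bases that can count as intronic. They take 1070 of 2468 bases in NDUFB10 and 1388 of 20186 in NDUFB6. Of the NDUFV1 span 14.34% also lies inside a same-strand gene. What part these limits take in the shares was not tested.

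**Figure D4:**
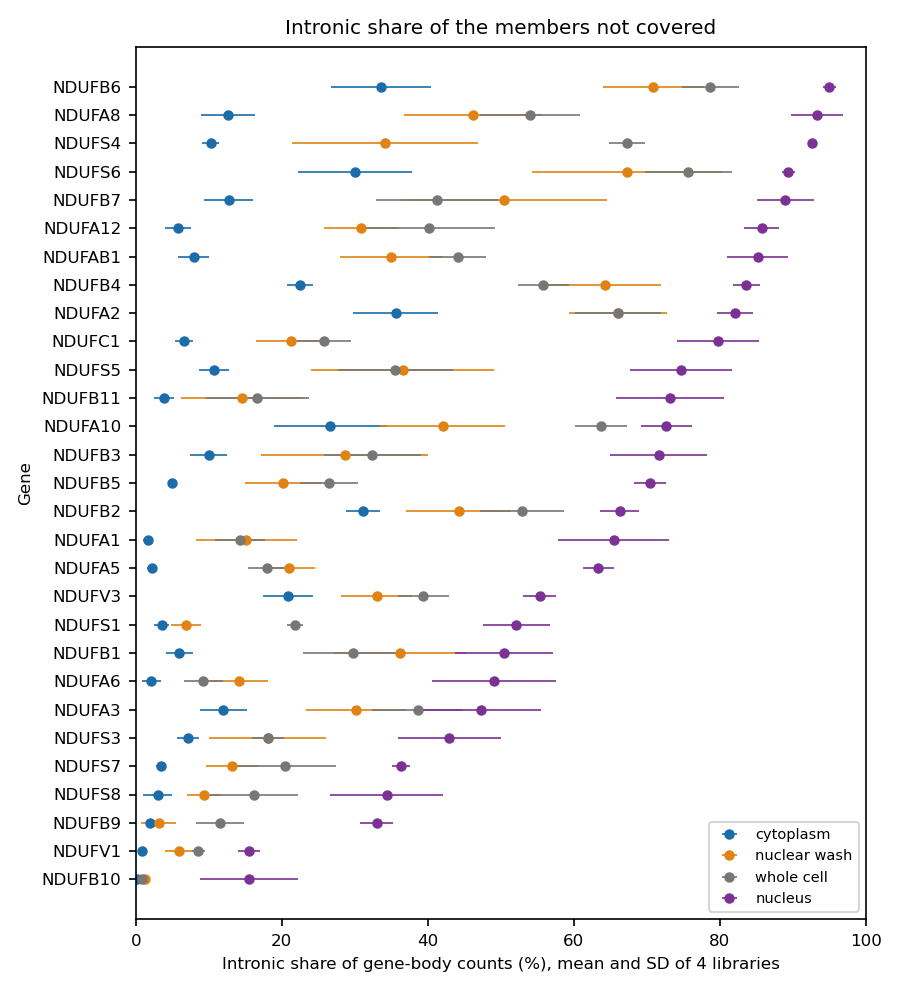
Intronic share of gene-body counts (%) for the 29 members not covered, in 4 fractions, as the mean and SD of 4 libraries. The nucleus lies to the right of the cytoplasm for each member, from 15.5% for NDUFB10 to 95.0% for NDUFB6.

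Leaving out the rRNA depletion changed the measured levels of several members. Of 32 members tested, 11 were higher in the undepleted wash than in the depleted wash and 1 was lower, with 7.75% higher and 3.35% lower over 11627 genes tested (edgeR, adjusted p under 0.05). With the replicate block, which keeps the shared column prefix as a term, 15 were higher and 4 lower, beside 16.7% higher and 15.8% lower over all genes in that fit. The CPM of the 2 preparations did not overlap for 15 of the 32, against 27.3% of all genes tested. NDUFS5 stood out: its CPM, scaled among the wash libraries, was 28.9, 9.99, 17.1 and 19.8 with depletion and 180.0, 148.2 and 153.7 without it. It rose by 3.11 ± 0.29 (edgeR adjusted p = 5.65e-05), from exon counts of 90 to 137 with depletion to 142 to 209 in the shallower undepleted libraries.

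NDUFS6, a zinc-binding accessory subunit of the peripheral arm, stood at 4.33 to 11.9 CPM with depletion and at 27.0, 36.2 and 41.1 without. It rose by 2.23 ± 0.32, and NDUFB7 rose by 2.04 ± 0.27. NDUFB11 rose by 1.30 and NDUFA8 by 1.16, while NDUFB5 fell by 1.05 ± 0.29 (edgeR adjusted p = 0.0389) and NDUFV2 had -0.44 ± 0.37 (edgeR adjusted p = 0.473). Leaving out 1 library gave 5 to 12 members higher, the lowest without undepleted replicate 2 and 6 without undepleted replicate 3, and the NDUFB5 call was lost without any of wash replicates 2, 3 and 4 or any of the 3 undepleted ones. With no composition factor 6 were higher and 7 lower, beside 3.45% higher and 30.7% lower over all genes. The share of higher among all calls then went from 69.84% to 10.10%. Across the 29 members not covered, the change had a Spearman correlation of -0.53 with exon length and -0.62 with gene span, a description across genes measured in the same libraries. A link with exon length was not particular to the depletion step. It was 0.57 for nucleus against cytoplasm, -0.59 for wash against nucleus and 0.13 for wash against cytoplasm. With gene span these 3 values were 0.16, -0.09 and 0.31. NDUFS5 has 548 bases of exon and NDUFB7 531, beside 9851 for NDUFA5. Length did not order all members: NDUFA1, with 766 bases, had -0.16 ± 0.33, and NDUFS4, with 1176, had -0.42 ± 0.22, and neither passed the test.

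**Figure D5:**
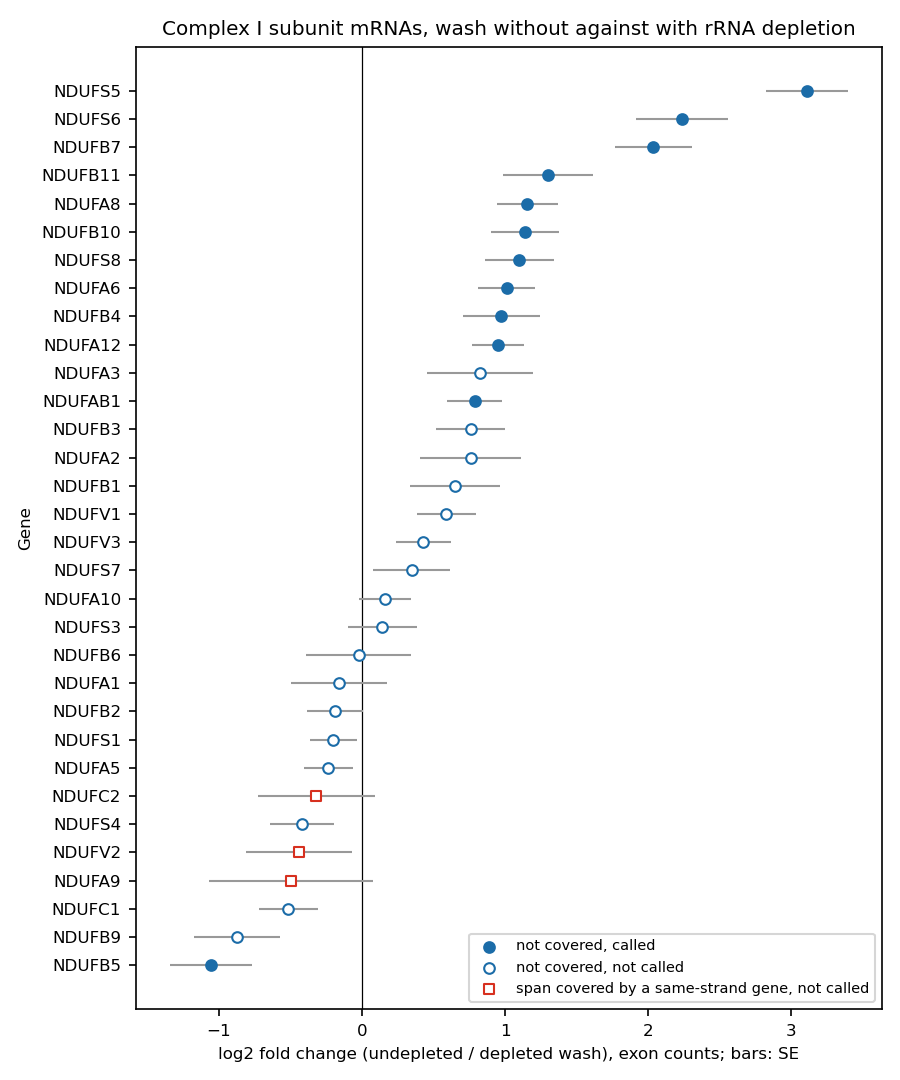
Log2 fold change of exon counts, undepleted against depleted wash, for the 32 members tested, with standard errors; filled symbols passed the test and squares mark covered members. NDUFS5 at 3.11, NDUFS6 at 2.23 and NDUFB7 at 2.04 lie farthest right, and NDUFB5 at -1.05 is the one filled symbol on the left.

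Genes that build or complete the complex were read beside the subunits. Of 20 assembly factors, 13 were lower in the nucleus than in the cytoplasm and 3 higher, beside 37.5% lower and 39.3% higher over all genes tested. Their median log2 fold change was -0.62. With no composition factor this median went to -0.02, with 7 in each direction, beside 23.6% lower and 53.3% higher over all genes. TMEM70, which helps assemble the membrane arm, fell by 2.12 ± 0.20 and NDUFAF4 had -1.87 ± 0.16, while COA1 rose by 1.02 and NDUFAF5, which hydroxylates NDUFS7, by 0.77 (edgeR adjusted p = 5.67e-09, 6.79e-10, 4.78e-07 and 6.93e-04). In the wash 11 of the 20 were lower than in the cytoplasm and none higher, led by NDUFAF4 at -0.92 and DMAC2 at -0.92. Over all genes 21.4% were lower and 22.8% higher there. Of the 7 mitochondrially encoded ND mRNAs, 4 were lower in the nucleus than in the cytoplasm, led by MT-ND2 at -2.48 and MT-ND4L at -2.18, and 2 were higher, MT-ND3 at 0.81 and MT-ND6 at 0.46. In the wash 4 were higher than in the cytoplasm, led by MT-ND6 at 2.79 and MT-ND3 at 2.78, beside 22.8% of all genes. All 7 were higher in the wash than in whole cells, beside 14.6% of all genes and a median of -0.04 for the nuclear-encoded members. The summed level of the 7 ND mRNAs was 31880 to 44120 CPM in the wash and 12890 to 25870 CPM in the cytoplasm. Scaled to the spike-ins, the wash was below the cytoplasm for 6 of the 7 and above it for none, beside 93.3% of all genes below. It was below whole cells for 7 of 7, beside 100% of all genes.

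Promoters of 32 members were matched in the RefSeq table (GRCh38.p14), and the 250 bases before each start were searched on both strands for 3 motifs often found at genes of the respiratory chain. The ETS core CCGGAAG was in 5 of 32 (15.6%) and in 8.52% of 35116 such windows. The NRF1 motif, GCGCA, any base (N) and GCGC, was in 5 (15.6%) and in 5.07% of all, and the YY1 core AAGATGG in 1 (3.12%) and in 3.70%. Among the 5 with the ETS core, those not covered were all lower in the nucleus than in the cytoplasm, as were 21 of all 29 members not covered. NDUFB7 and NDUFA1 were among the lowest in the nucleus, and NDUFS1 and NDUFS3 had -0.95 and -1.13. NDUFA13, which holds the motif nearest to the start, was 3.18 higher. It is a covered member with 2 to 5 exon counts per cytoplasm library, so its value describes the countable pieces only. NDUFA8, NDUFC1, NDUFB11 and NDUFAB1, also among the lowest in the nucleus, held no ETS core in these windows. NDUFB7 and NDUFA1 are shown as examples with the motif in capitals, NDUFB7 at chr19:14572067-14572316 on the minus strand and NDUFA1 at chrX:119871582-119871831 on the plus strand. The starts are those of RefSeq, and some differ from GENCODE 29. The NDUFA1 window lies inside the GENCODE span, which begins at chrX:119871487. The windows of NDUFA13 and NDUFS3, which also hold the ETS core, lie inside their genes too. So do those of NDUFV1, NDUFV3, NDUFB2, NDUFB3 and NDUFS7. The NDUFA5 window (chr7:123601652-123601901, minus strand) lies apart from the GENCODE span of the gene (chr7:123536997-123558255). A match is a description of the letters only.
NDUFB7: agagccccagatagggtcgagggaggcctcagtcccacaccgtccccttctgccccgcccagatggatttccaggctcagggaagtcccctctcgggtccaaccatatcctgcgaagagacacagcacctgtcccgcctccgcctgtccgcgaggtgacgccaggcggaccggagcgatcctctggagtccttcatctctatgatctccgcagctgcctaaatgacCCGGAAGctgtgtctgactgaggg
NDUFA1: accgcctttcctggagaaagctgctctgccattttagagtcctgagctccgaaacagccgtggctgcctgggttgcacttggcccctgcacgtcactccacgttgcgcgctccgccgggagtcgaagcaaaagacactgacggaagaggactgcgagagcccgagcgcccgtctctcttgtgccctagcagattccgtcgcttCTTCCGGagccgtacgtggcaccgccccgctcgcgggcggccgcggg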

How the data were processed

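The deposited tables hold raw counts of reads per gene, 1 over exons and 1 over whole gene bodies, for all 19 libraries. Per the submitters' processing notes the authors used cutadapt 2.5, STAR 2.7.0a, featureCounts 1.6.2 and hg38; no annotation release or strand setting is stated there. Spike-in rows were kept out of library sizes and tests. From the deposited counts, edgeR 4.0.16 (R 4.3.3; filterByExpr, TMM, quasi-likelihood) was fitted once on the 16 depleted libraries (15940 genes) and once on the 7 wash libraries (11627 genes); calls use an adjusted p under 0.05 over all genes tested. CPM use TMM-scaled library sizes. The intronic share is gene-body minus exon counts over gene-body counts, for genes with a mean of at least 20 gene-body counts in both groups. Gene models are GENCODE 29. The scripts were tested on simulated data. Replicate numbers were matched through the column prefixes, and same-numbered libraries deviated together (correlations from 0.162 to 0.596 over 9431 genes). Differently numbered libraries whose prefixes begin with the same digit often did so too. Whole cell 4 had 0.550 with cytoplasm 3 and 0.270 with cytoplasm 4, whereas whole cell 1 had -0.046 with wash 2 and 0.412 with wash 1. These values therefore do not separate pairing by number from a difference between prefix digits. A replicate block was an alternative, with RLE factors, no factor, spike-in sizes, no filter, gene-body counts, DESeq2 1.42.0 and leaving out 1 library. Members and lists were chosen with earlier results of these data known. Named are, per comparison, the 5 called members with the largest changes in each direction, with NDUFV2 and NDUFS5, and the 3 highest and lowest for levels and intronic shares; NDUFA1, NDUFS1, NDUFS3, NDUFS4, NDUFS7, NDUFS8, NDUFV1 and NDUFA3 were added after their values were seen.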

Additional observations from a re-analysis of the deposited data

Results flagged for a closer look

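In 12 of the 144 sets of 4 libraries tested, the highest or lowest CPM lay far from the other 3 (gap over range above Dixon's 95% critical value); chance gives about 1 in 20. In whole cells these were NDUFA2 at 15.7 in replicate 1 (9.28 to 10.3 in the others), NDUFA5 at 160.4 in replicate 4 (216.2 to 222) and NDUFAB1 at 36.7 in replicate 4 (32.4 to 33.0). In the cytoplasm they were NDUFA5 at 377.9 in replicate 4 (320.4 to 329.7) and NDUFS6 at 15.95 in replicate 3 (12.4 to 12.9). In the wash NDUFA6 at 34.2, NDUFA12 at 26.8 and NDUFAB1 at 34.2 were the lowest, all in replicate 2, against 48.4 to 50.5, 33.7 to 35.0 and 48.8 to 51.2, and NDUFV3 at 126.6 was the highest in replicate 1 (84.4 to 87.8). In the nucleus NDUFS6 stood at 13.3 in replicate 2 (11.4 to 11.6), NDUFA1 at 9.81 in replicate 4 (4.06 to 4.91) and NDUFB4 at 7.23 in replicate 4 (8.38 to 8.55).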

How the results depend on the processing

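The call counts of members kept within 1.5 times of the reported ones in 210 of 266 values compared; the rest follow, and for the scaling settings the cause was not tested. With spike-in library sizes the members called higher and lower were 0 and 35 for wash against cytoplasm, 0 and 28 for wash against nucleus, 0 and 32 for cytoplasm against whole cell, 0 and 34 for nucleus against whole cell, 0 and 35 for wash against whole cell, and 3 and 2 for the undepleted against the depleted wash. These named members then changed sign (log2): in wash against cytoplasm NDUFV2 (-1.15) and NDUFB9 (-2.28); in wash against nucleus NDUFA1 (-0.20), NDUFC1 (-0.17), NDUFA8 (-0.26), NDUFB9 (-0.36) and NDUFS5 (-1.65); in cytoplasm against whole cell NDUFAB1 (-0.20), NDUFA8 (-0.44), NDUFC1 (-0.45), NDUFB6 (-0.49) and NDUFA5 (-0.50); in nucleus against whole cell NDUFV2 (-0.30), NDUFA9 (-0.95) and NDUFA10 (-1.34); in wash against whole cell NDUFB9 (-2.94), NDUFC2 (-3.76), NDUFAB1 (-3.99), NDUFS1 (-3.97) and NDUFV3 (-4.04). With no composition factor, 12 members were higher in nucleus against cytoplasm, 14 lower in wash against nucleus, 4 higher in cytoplasm and 11 higher in nucleus against whole cell, 1 higher and 12 lower in wash against whole cell, and 6 higher and 7 lower in the undepleted wash. For wash against whole cell, 7.43% of all genes were higher and 39.2% lower with this setting. The share of higher among all calls was then 69.31% for nucleus against cytoplasm, 19.96% and 70.06% for cytoplasm and nucleus against whole cell and 15.95% for wash against whole cell; with RLE factors it was 58.06% and with DESeq2 57.26% for nucleus against whole cell, and with spike-ins 34.74% for nucleus against cytoplasm and 0.0% for wash against whole cell.

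With gene-body counts, which test 29 members since the covered ones hold none, 3 were higher in nucleus and 4 in wash against cytoplasm, 3 lower in wash against nucleus, 2 lower in cytoplasm against whole cell, 13 higher and 2 lower in wash against whole cell, and 0 lower in the undepleted wash. Leaving out the 7 covered members, an alternative chosen after seeing the data, left 1 higher in nucleus and 1 in wash against cytoplasm, 3 lower in wash against nucleus, 1 lower in cytoplasm and 1 higher in nucleus against whole cell, and 3 lower in wash against whole cell. DESeq2 called 5 higher in nucleus against whole cell. Without mitochondrial and rRNA genes 3 were higher in wash against whole cell; within prefix 1 this was 1, and 9 were higher in cytoplasm against whole cell. Without the count filter 2 were lower in the undepleted wash, and with the replicate block, 4; the block moved no other count by more than 1.5 times. Leaving out 1 library gave 12 to 17 members higher in cytoplasm against whole cell (12 without whole cell replicate 3), 2 to 6 higher in wash against whole cell (2 without whole cell replicate 3 or 4), 5 to 12 higher and 0 to 1 lower in the undepleted wash, and 0 to 0 called for the intronic share, where the exact permutation test of 3 against 3 libraries cannot go below p = 0.100. The 29 differences stayed positive. Among named members 27 calls were lost with 1 library left out, in wash against whole cell NDUFAB1 (any library but wash 2), NDUFV3 (any whole cell library, or wash 1), NDUFC2 (whole cell 3 or 4, or wash 4) and NDUFV2 (whole cell 2 or wash 4), in cytoplasm against whole cell NDUFB6 (whole cell 4), and in the undepleted wash NDUFB5 (any but wash 1), NDUFB11 (undepleted 2 or 3) and NDUFA8 (undepleted 2). NDUFA11, NDUFA13, NDUFB8 and NDUFA7 rest on under 40 exon counts per library, which limits their precision. The same holds in the nucleus for NDUFB7, NDUFB11, NDUFA8, NDUFA1, NDUFC1 and NDUFAB1. It also holds there for NDUFB6 (3 to 7 exon counts), NDUFC2, NDUFB3, NDUFA3, NDUFB4, NDUFB1, NDUFA2 and NDUFA12.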
